A study of Mus musculus with 6 samples.

Results

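Complement genes were examined in white adipose tissue of mice that lacked the transcription factor YY1 in adipocytes. The list held 9 genes: the complement proteins Cfd, C3, C4b, C2, Cfb and Cfp, the inhibitor Serping1, and the receptors C3ar1 and C5ar1. A gene was included where the array annotation gave a probe set that gene's symbol and no other. This found 6 of the 9 genes, on 7 probe sets, among 12393 genes on 20380 such probe sets. They were C2 (probe set 1416051_at), Cfb (1417314_at), Serping1 (1416625_at), Cfp (1452279_at), C3ar1 (1419482_at and 1419483_at) and C5ar1 (1422190_at). Cfd and C3 were not analysed here, because no probe set carries their symbol in the annotation used. C4b shares its probe set with C4a and was not counted. Of the 6 genes, 5 passed the filter on dim genes, and C5ar1 did not.

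All mice were 8 weeks old, of a mixed C57BL6 and 129 background, and were kept at 4 °C for 4 days. The 3 control samples came from mice with floxed YY1 alleles (YY1flox/flox). The 3 YY1aKO samples came from mice that had these alleles together with Adiponectin Cre, a recombinase driven by a promoter active in adipocytes, so other cells of the tissue are expected to keep the gene. No control carried Cre, so Cre itself and loss of YY1 cannot be told apart in this design. The labels name the depot as visceral, with EWAT in the titles, but as subcutaneous in the series title and descriptions. They do not say whether each sample came from its own animal, and a p-value here reflects variation among these samples, which may be technical.

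Complement is a cascade of plasma and tissue proteins that tags and attacks foreign or damaged surfaces. The classical pathway starts with C1q and its proteases C1r and C1s, which cleave C4 and then C2 to build a C3 convertase. The alternative pathway builds its convertase from C3b and factor B (Cfb), which factor D (Cfd, also called adipsin and secreted by adipocytes) cleaves, and properdin (Cfp) holds this enzyme together. C1 inhibitor (Serping1) blocks C1r and C1s, and C3ar1 and C5ar1 sense the small peptides C3a and C5a. Liver makes most plasma complement, while adipocytes, fibroblasts and macrophages make many components locally.

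One-colour Affymetrix arrays were used, a single array for each sample, and precision is limited by how few there are. Medians ran from 134 to 140 on the linear intensity scale. Yy1 ranged from 1596 to 1846 across controls and from 315 to 373 across YY1aKO arrays, 5.18-fold lower, or 5.02-fold without control 2. Control 2 stood apart from the other arrays. The sum over 6 epididymal genes, among them Lcn8, Gpx5, Lcn5 and Adam7, was 87710 there, 182 and 860 on control arrays 1 and 3, and 193 to 207 for YY1aKO. The 11 adipocyte genes with a probe set, among them Fabp4, Lpl, Adipoq and Retn, summed to 139736 and 131294 in controls 1 and 3, to 87277 in control 2, and to between 115081 and 121812 in YY1aKO. Log2 differences are therefore given with 6 arrays and without control 2, which compares 2 controls with 3 YY1aKO arrays. In bulk tissue, fewer cells of a type and less RNA per cell cannot be told apart.

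C2, the serine protease of the classical and lectin pathway convertase, was lower in every YY1aKO array than in any control. The intensities on control arrays 1 to 3 were 2382, 1084 and 2448, and those on YY1aKO arrays 1 to 3 were 730.1, 722 and 497.5. The groups did not overlap, although control 2 lay 1.16 log2 units from the mean of the other controls, on the side of YY1aKO. The log2 difference, YY1aKO minus control, was -1.53 ± 0.36 (SE, n = 3 per group), which is 2.89-fold lower (limma, adjusted p = 0.034). Without control 2 it was -1.92 ± 0.18, or 3.77-fold lower (adjusted p = 0.0015). The call was lost without any other single array (adjusted p from 0.074 to 0.13), and with no filter on dim genes (adjusted p = 0.051).

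Cfb, the protease of the alternative pathway convertase and the closest relative of C2, did not pass the test with 6 arrays and was lower without control 2. Control arrays gave 1427, 551 and 1366, compared with 725, 669 and 523 on the YY1aKO arrays. Control 2 lay among the YY1aKO arrays, and the other controls lay above all of them. With 6 arrays the log2 difference was -0.69 ± 0.39 (95% interval -1.66 to 0.27, adjusted p = 0.25). Without control 2 it was -1.14 ± 0.15, or 2.20-fold lower (adjusted p = 0.0030).

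Serping1, which encodes the inhibitor of C1r and C1s, also did not pass with 6 arrays and was lower without control 2. Its intensity was 4797, 3717 and 6044 on the control arrays, then 3869, 3233 and 2954 for YY1aKO. YY1aKO 1 lay above control 2 and below the other controls. The log2 difference was -0.51 ± 0.21 with 6 arrays (adjusted p = 0.13) and -0.69 ± 0.15 without control 2, or 1.62-fold lower (adjusted p = 0.015). With control 3 or YY1aKO 2 left out in addition to control 2, Serping1 no longer passed (adjusted p = 0.070 and 0.0504), while C2 and Cfb passed with any further array left out.

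**Figure D1:**
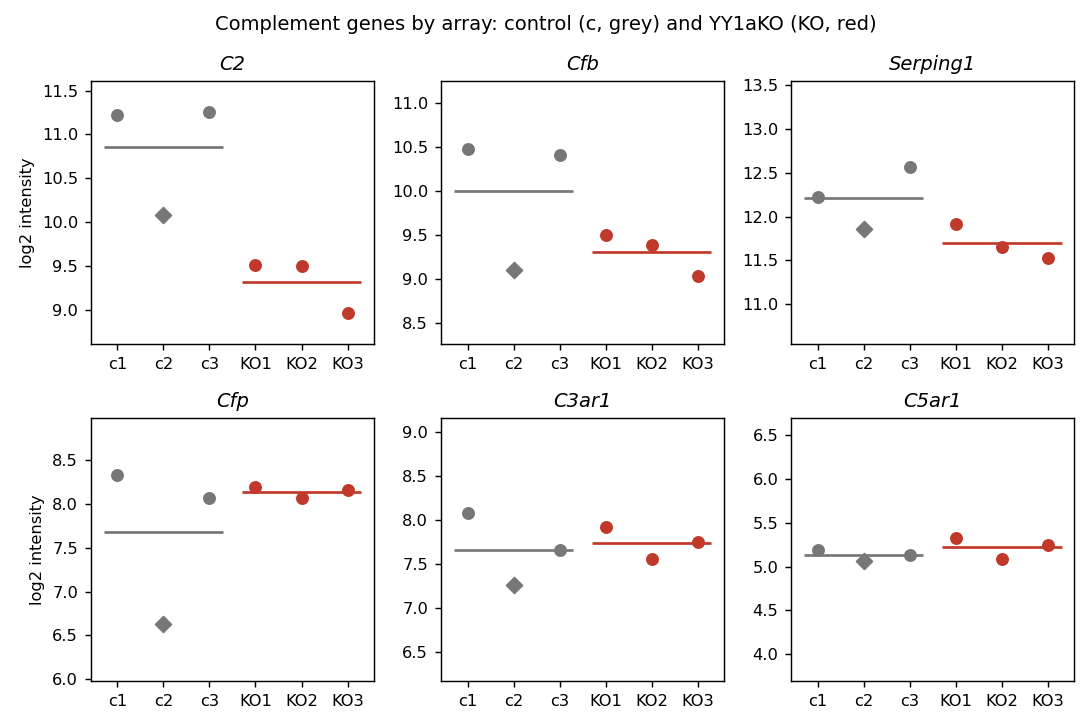
Log2 intensity (y axis, 3 log2 units in every panel) of the 6 complement genes on each array (x axis), with controls in grey (control 2 as a diamond) and YY1aKO in red. Lines are group means. C2, Cfb and Serping1 are lower in YY1aKO than in controls 1 and 3, and control 2 is the lowest control for each gene.

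Cfp, which encodes properdin and is known from myeloid cells, did not pass in either fit. The controls had intensities of 322, 99.3 and 267 and the YY1aKO arrays of 293, 267 and 285. All arrays but control 2 lay between 267 and 322. The log2 difference was 0.46 ± 0.44 with 6 arrays (adjusted p = 0.49) and -0.06 ± 0.11 without control 2 (95% interval -0.32 to 0.20, adjusted p = 0.67).

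C3ar1, the receptor for the C3a peptide, also did not pass. Its brighter probe set had 271, 153 and 202 on control arrays against 243, 189 and 215 on YY1aKO arrays, so the groups overlapped. The log2 difference was 0.08 ± 0.23 (adjusted p = 0.84), or -0.12 ± 0.16 without control 2 (95% interval -0.53 to 0.28, adjusted p = 0.56). The other probe set had 109.7, 49.3 and 68.9 on control arrays against 84.7, 82.2 and 76.6 on YY1aKO arrays, with differences of 0.17 and -0.10.

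C5ar1, the C5a receptor of neutrophils and macrophages, lay below the filter level of 114. Control arrays gave 36.5, 33.5 and 35.1, compared with 40.2, 34.0 and 37.8 on the YY1aKO arrays. The readings overlapped and are low on this scale, and as detection calls were not used here, how much of them is background is not known. In the fit with no filter the log2 difference of C5ar1 was 0.09 ± 0.10 (adjusted p = 0.60), or 0.06 ± 0.10 without control 2 (adjusted p = 0.72).

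Of the 5 members tested, 1 was lower (C2) and none higher with 6 arrays by limma, beside 7.80% of all 7436 tested genes called lower and 12.9% called higher. At an unadjusted p under 0.05, 2 members were lower and 0 higher, beside 1118 lower and 1654 higher among all 7436 tested genes. Without control 2, 3 were lower (C2, Cfb and Serping1) and none higher, beside 19.6% of all genes called lower and 25.5% called higher. The median log2 difference of the 5 was -0.51, or -0.69 without control 2, against 0.06 and 0.03 over all genes tested. The groups stood apart downwards for 1 of the 5 with 6 arrays (19.6% of all genes) and for 3 without control 2 (31.4%). Taken probe set by probe set with no filter, 0 of 7 passed in limma (C2 had an adjusted p of 0.0501), beside 10.2% of all probe sets. Without control 2, 3 of 7 passed, beside 24.4%.

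The other genes of the cascade were taken from a list of 50, of which 38 have a probe set of their own and 17 were tested. With 6 arrays 1 was lower and 0 were higher by limma, beside 7.80% and 12.9% of all genes, and the median was 0.06. At an unadjusted p under 0.05, 2 were lower (Cr1l and Susd4) and 1 higher (C8g), beside 1118 and 1654 of all 7436 tested genes. Susd4 passed the filter only through the controls (mean log2 7.98, against 5.72 over YY1aKO arrays). C8g passed it only through YY1aKO (mean log2 7.19, against 6.55 over controls). Without control 2, 7 were lower and 1 higher (C8g), beside 19.6% and 25.5% of all genes, and the median was -0.33.

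The classical pathway proteases C1ra and C1s1 read lower in YY1aKO than in controls 1 and 3. C1s1 had 3362, 1519 and 3154 on control arrays against 1763, 1665 and 1106 on YY1aKO arrays, a log2 difference of -0.77 ± 0.36 with 6 arrays (adjusted p = 0.18) and -1.14 ± 0.21 without control 2 (adjusted p = 0.0083). C1ra had 824, 378 and 884 on control arrays against 498, 405 and 346 on YY1aKO arrays, with differences of -0.66 ± 0.35 (adjusted p = 0.23) and -1.05 ± 0.16 (adjusted p = 0.0046). For both genes control 2 lay among or near the YY1aKO arrays, as for Cfb. The mouse genome holds near-identical copies of these genes, so their probe sets may read more than one gene.

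The C1q chains, which macrophages make, did not pass in either fit. C1qa had 2397, 1328 and 2373 on control arrays against 2387, 2066 and 2108 on YY1aKO arrays. C1qb read 1570.1, 764 and 1381 against 1494, 1267 and 1345, and C1qc read 989.6, 485 and 955 against 985, 891 and 925. For all 3 chains control 2 was the lowest array. The log2 differences of C1qa, C1qb and C1qc were 0.15, 0.21 and 0.27 with 6 arrays (adjusted p = 0.69, 0.63 and 0.53). Without control 2 they were -0.13 (95% interval -0.36 to 0.10), -0.11 (-0.37 to 0.16) and -0.06 (-0.26 to 0.14), with adjusted p of 0.30, 0.44 and 0.58.

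**Figure D2:**
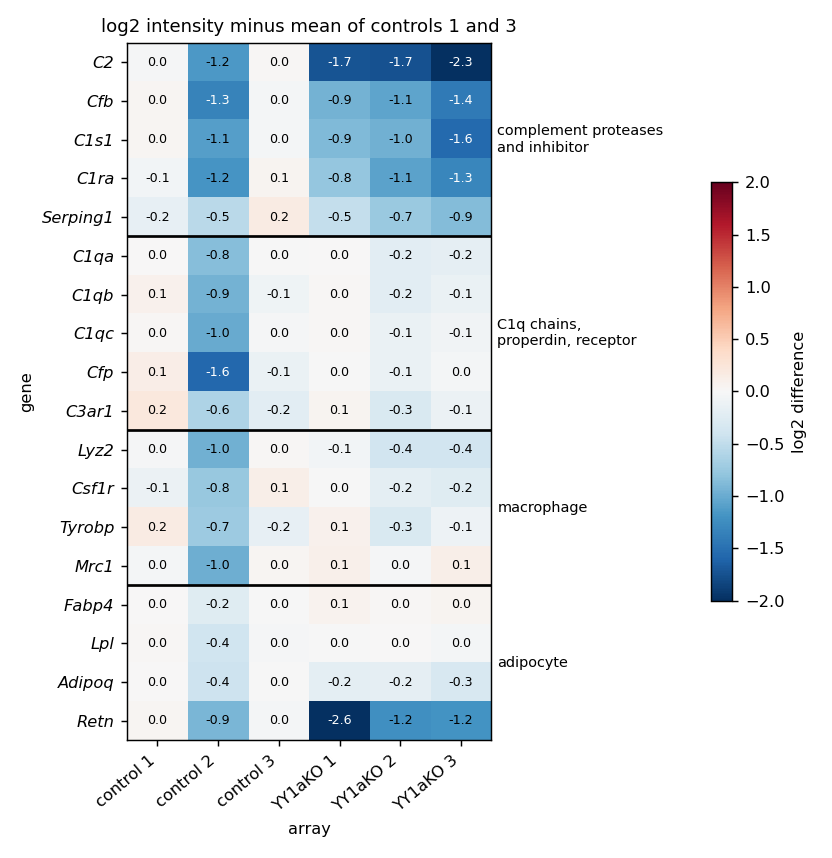
Log2 intensity of each gene (rows) on each array (columns), minus the mean of controls 1 and 3. C2, Cfb, C1s1, C1ra and Serping1 are lower on all 3 YY1aKO arrays. The C1q chains, Cfp, C3ar1 and the 4 macrophage genes shown (Lyz2, Csf1r, Tyrobp and Mrc1) are low mainly in control 2. Other genes of the macrophage list, among them Mertk, which was lower in YY1aKO in both fits, are not shown. Among the 4 adipocyte genes Retn is low in YY1aKO.

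Among the lectin genes listed, Fcna, a ficolin of macrophages, and Colec12, a scavenger collectin, passed without control 2 (-0.69 ± 0.18, adjusted p = 0.024, and -0.81 ± 0.10, adjusted p = 0.0024). With 6 arrays they had -0.52 and -0.37 (adjusted p = 0.14 and 0.52). Masp1, below the filter level, had -0.30 ± 0.28 with no filter (adjusted p = 0.53), or -0.61 ± 0.12 without control 2 (adjusted p = 0.016). Masp2, Mbl1 and Mbl2, also below it, did not pass with no filter, with or without control 2. Of the terminal pathway, 1 gene was tested. C8g, a chain of the membrane attack complex, had 79.4, 138 and 74.6 on control arrays against 147, 154 and 138.4 on YY1aKO arrays. It had a difference of 0.64 ± 0.25 with 6 arrays (adjusted p = 0.12) and 0.93 ± 0.09 without control 2 (adjusted p = 0.0014). The mean log2 of C8g was 6.55 over controls and 7.19 over YY1aKO arrays, so it passed the filter only through YY1aKO. C6, another component of that complex, lay below the filter level and was lower on every YY1aKO array than on any control. Its arrays gave 205, 83.2 and 106 for controls and 40.5, 53.3 and 59.6 for YY1aKO. In the fit with no filter C6 had -1.27 ± 0.36 with 6 arrays (adjusted p = 0.080) and -1.55 ± 0.31 without control 2 (adjusted p = 0.018). The other 4 terminal genes with a probe set, also below the filter level, did not pass in that fit with or without control 2 (adjusted p from 0.091 to 0.90).

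Among the regulators, Cr1l, the rodent membrane protein that takes apart C3 convertases on the host's own cells, was lower in YY1aKO in both fits. Its intensity was 1287, 1470.1 and 1276.5 on the control arrays, then 758, 816 and 685 for YY1aKO. Unlike for the members, control 2 was here the highest of all arrays, and the groups did not overlap. The log2 difference was -0.84 ± 0.11 with 6 arrays (adjusted p = 0.010) and -0.77 ± 0.10 without control 2 (adjusted p = 0.0028). The call was lost without YY1aKO 1, 2 or 3 (adjusted p from 0.052 to 0.062).

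Cd59a, which blocks the membrane attack complex, had 3170, 1730.1 and 3005 on control arrays against 2027, 1798 and 1884 on YY1aKO arrays. It had a difference of -0.42 ± 0.25 (adjusted p = 0.26), or -0.70 ± 0.09 without control 2 (adjusted p = 0.0027). Clu, a secreted chaperone and fluid-phase inhibitor, read 29081 on the array of control 2, where epididymal genes were high, 3354 and 4302 for controls 1 and 3, and 2367, 1998 and 1619 in YY1aKO. Its difference was -1.93 ± 0.82 (adjusted p = 0.15), or -0.95 ± 0.19 without control 2 (adjusted p = 0.011). C1qbp, a mitochondrial protein first found through its binding of C1q, differed by 0.14 ± 0.09 in both fits and did not pass (adjusted p = 0.32 and 0.23).

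Neither of the 2 tested receptors outside the member list, Itgb2 (0.22 and, without control 2, -0.30) and Cd93 (0.40 and -0.18), passed in either fit (adjusted p from 0.24 to 0.77).

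**Figure D3:**
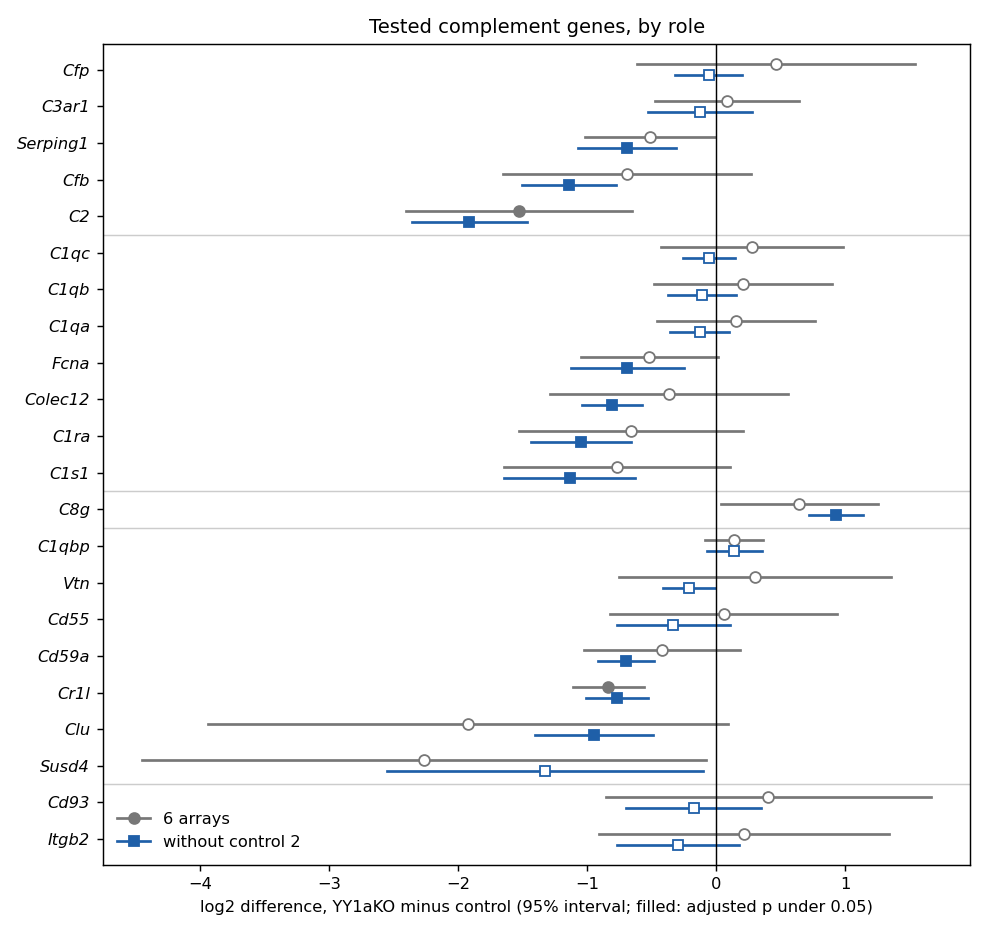
Log2 difference between YY1aKO and control (x axis, bars are 95% intervals) for the 22 tested complement genes (y axis), the members first and then the other genes by role. Grey circles use 6 arrays and blue squares leave out control 2, and filled symbols have an adjusted p under 0.05. C2 and Cr1l are filled in both fits, while Cfb, Serping1, C1ra and C1s1 are filled without control 2 and open with 6 arrays.

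Marker genes of cells that could supply complement were read on the same arrays. Of 11 tested macrophage genes, 1 was lower (Mertk, -0.90, adjusted p = 0.012, or -1.01 and 0.0015 without control 2) and none higher, beside 7.80% and 12.9% of all genes. Without control 2, 2 were lower, beside 19.6% of all genes. The 12 macrophage genes summed to 18166 and 17922 in controls 1 and 3, to 9781 in control 2 and to 14681 to 17652 in YY1aKO. Lyz2, Csf1r, Tyrobp and Mrc1 are the brightest of them. Of 11 tested adipocyte genes none passed with 6 arrays, and Retn was lower without control 2 (-1.67, adjusted p = 0.024). Of 9 tested fibroblast and progenitor genes none passed with 6 arrays and 4 were lower without control 2, beside 19.6% of all genes. Their sum was 33433 and 35688 in controls 1 and 3, 23114 in control 2 and 24548 to 30229 in YY1aKO. The adipocyte, macrophage and fibroblast sums were each lower on all 3 YY1aKO arrays than on controls 1 and 3, and lowest in control 2. The adipocyte genes did not all move with their sum. Retn, a bright part of it, had 19778, 10247 and 18733 on control arrays against 3171, 8225 and 8440 on YY1aKO arrays. With 6 arrays the groups stood apart downwards for 1 of the 11, Retn, and upwards for 4, beside 1456 and 2073 of all 7436 tested genes. Of the brightest fibroblast genes, Dcn had -0.07 and Col3a1 -0.09 with 6 arrays (adjusted p = 0.84 for each), and -0.27 (adjusted p = 0.078) and -0.37 (adjusted p = 0.039) without control 2. The part of these shifts in cell markers in the differences of C2, Cfb and Serping1 was not tested. Of the 7 mesothelial genes tested none passed with 6 arrays and 2 were lower without control 2, beside 19.6% of all genes. Their sum lay between 5397 and 11425 for controls and between 2605 and 4610 for YY1aKO. The 8 hepatocyte genes had sums of 297 to 317 (controls) and 303 to 330 (YY1aKO), with Alb at 54.0 to 106, and none reached the filter level. The 9 neutrophil genes had sums of 289 to 497 (controls) and 296 to 340 (YY1aKO), and only S100a8 was tested (-0.41, adjusted p = 0.41, and without control 2 -0.75, adjusted p = 0.018). The mean log2 of S100a8 was 7.08 over controls and 6.67 over YY1aKO arrays, so it passed the filter only through the controls.

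The members were also read against marker genes on the same array, a step chosen after the values were seen. For each array the mean log2 intensity of the 11 tested adipocyte genes, or of the 11 tested macrophage genes, was subtracted from that of the member, and controls 1 and 3 were set to a mean of 0. Relative to the adipocyte genes, C2 stood at -0.09, -0.12 and 0.09 in controls 1 to 3 and at -1.47, -1.68 and -2.13 in YY1aKO 1 to 3. On this scale control 2 lay with the other controls. Cfb stood at -0.04, -0.30 and 0.04 in controls and at -0.69, -1.001 and -1.27 in YY1aKO, and the groups no longer overlapped. Serping1 stood at -0.24, 0.50 and 0.24 in controls and at -0.22, -0.68 and -0.72 in YY1aKO, and the groups overlapped.

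Relative to the macrophage genes, the mean difference between groups was -1.63 for C2, -0.79 for Cfb and -0.61 for Serping1, with no overlap for any of the 3. Cfp had 0.37 with no overlap, and control 2 alone lay far below the other arrays, and C3ar1 had -0.02. Without control 2 these differences were -1.72 for C2, -0.94 for Cfb, -0.50 for Serping1, 0.14 for Cfp and 0.07 for C3ar1. Relative to the adipocyte genes they were -1.72 for C2, -0.88 for Cfb and -0.70 for Serping1 with 6 arrays, and -1.76, -0.98 and -0.54 without control 2. Over these 10 comparisons the smallest p of the exact two-sided permutation test of 3 against 3 is 0.10, so none could pass. C2 and Cfb reached it on both scales, and Serping1 and Cfp on the macrophage scale (0.17 after Benjamini-Hochberg adjustment). The share of all genes whose groups stand apart was not computed on either marker scale. With plain log2 intensities and 6 arrays, 19.6% of all tested genes stood apart downwards.

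**Figure D4:**
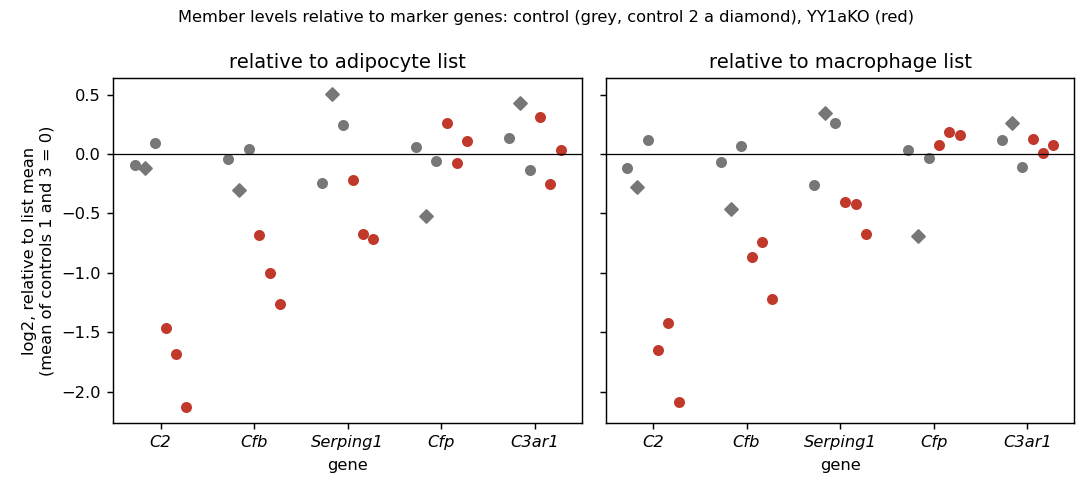
Log2 intensity of 5 complement genes (x axis) minus the mean log2 intensity of the adipocyte list (left) or the macrophage list (right) on the same array, with the mean of controls 1 and 3 at 0 (y axis, log2 units). C2 and Cfb are lower on every YY1aKO array (red) than on any control (grey, control 2 as a diamond), while C3ar1 overlaps between groups on both scales.

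Cfb and C2 are direct neighbours on the chromosome in the RefSeq table of GRCm38.p6, within a stretch of the major histocompatibility complex. The 3 protein-coding genes next to Cfb are Nelfe, Skiv2l and Dxo, with log2 differences of 0.02, -0.10 and 0.02. Without control 2 they had 0.29, -0.21 and -0.03, and none passed in either fit (adjusted p from 0.069 to 0.98). Beyond C2, Ehmt2 had -0.28 (adjusted p = 0.15), or -0.36 without control 2 (adjusted p = 0.037), beside -1.92 for C2 and -1.14 for Cfb. Zbtb12 and Slc44a4 lay below the filter level.

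Over the 6 arrays, C2, Cfb and Serping1 varied together, with Pearson correlations of 0.90 (Cfb and Serping1), 0.91 (C2 and Cfb) and 0.93 (C2 and Serping1). Cfp and C3ar1 correlated at 0.85, while C2 correlated with Cfp at 0.04 and with C3ar1 at 0.20. These values describe 6 arrays that share the group difference and the low readings of control 2, and they are not given for the 5 arrays without it. Among all tested genes outside the list, the patterns most like that of C2 were those of Emp1, Sri and Gstt1 (r = 0.993, 0.993 and 0.991). For C3ar1 they were Pla2g2d (r = 0.998), Tyrobp, an adaptor of myeloid receptors (0.986), and Pard3b (0.984). For Cfp they were Cd36, Selenop and Scp2 (r = 0.998, 0.997 and 0.997), none of them on the macrophage list.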

How the data were processed

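The authors deposited linear intensity values for 6 arrays. The submitters' processing notes name RMA, without a version or settings. RMA makes array distributions alike, so a shift shared by most genes would be removed. Of 22690 probe sets, 64 controls were left out, 20380 have a single symbol and 691 several, and 1555 are unnamed here. The log2 of the intensity was taken. For a gene with several probe sets the brightest on average was used, and the brightest 60% of genes (7436, mean log2 of at least 6.83) were tested across all genes with limma 3.58.1 in R 4.3.3 (lmFit, eBayes, Benjamini-Hochberg adjustment, threshold 0.05, two-sided). All 7 member probe sets were also fitted with no filter. Scripts were tested on simulated data.

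The members and lists were chosen with earlier results of these data known. Named genes are every member, other complement genes past the threshold and the 3 brightest that did not pass, the brightest 4 of each marker list where values are given, and Yy1. The remaining names were chosen after their values were seen. The most similar genes were planned for Cfd and C3 and are given for C2, C3ar1 and Cfp in their place. Alternatives covered probe set choice, filter, normalization, variance prior, array weights, a replicate block and arrays left out.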

Additional observations from a re-analysis of the deposited data

How the results depend on the processing

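With 6 arrays 1 member was lower. The count was 0 with no filter, with every probe set on its own and with the replicate block, 3 with array weights (a fit that stopped before convergence), and 0 to 3 with each array left out (3 without control 2, 0 without any other). With control 2 and 1 further array left out, chosen after the data were seen, it was 2 to 3. No setting called a member higher. Of all tested genes, 7.80% were called lower and 12.9% higher with 6 arrays, and 19.6% and 25.5% without control 2. Such shares are not given for the other settings. A larger count of members, or of the other complement genes below, therefore cannot be read as particular to them. Of the other complement genes, 1 was lower: 0 with the replicate block, 5 with array weights, 0 to 7 with 1 array left out and 5 to 7 with control 2 and another left out. The count of higher ones, 0, was 1 with array weights, 0 to 1 with 1 array left out and 1 with control 2 and another left out. Of the 7 member probe sets 0 passed, against 1 after quantile normalization again, 3 with array weights and 0 to 3 with 1 array left out. With the replicate block the adjusted p of C2 was 0.094 and that of Cr1l 0.062. The labels state no pairing. Deviations of same-numbered arrays from their group means correlated at -0.14, -0.12 and -0.12, and those of other pairs at 0.03 to 0.12. These small values cannot decide whether the numbers pair the samples. C2, Cfb and Serping1 kept their direction in every setting. Cfp and C3ar1, never called, changed sign. With 1 array left out, Cfp ranged from -0.06 (without control 2) to 0.79, and C3ar1 from -0.12 (without control 2) to 0.29, with -0.0095 without YY1aKO 1. With control 2 and another array left out, Cfp ranged from -0.19 to 0.07 and C3ar1 from -0.34 to 0.09. With array weights C3ar1 had -0.0826, C1qa -0.0775 and C1qb -0.0475. With 1 array left out, C1qa ranged from -0.13 to 0.30, C1qb from -0.11 to 0.41 and C1qc from -0.0595 to 0.45, the lowest being without control 2. The cause of these changes was not tested. In a fit with 1 control left, that control is assumed to vary like the other arrays.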

Other observations

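Genes that control complement transcription, or whose products do so, were also listed. Of 7 tested, 1 rose with 6 arrays, beside 12.9% of all genes called higher. Without control 2, 1 rose and 3 fell, beside 25.5% of all genes called higher and 19.6% called lower. Rela, a subunit of NF-kB, had 950.2, 863 and 871 on control arrays against 1237, 1224 and 1229 on YY1aKO arrays (0.46 ± 0.09, adjusted p = 0.020, or 0.43 and 0.0081 without control 2). Cebpd, a factor of the acute-phase response, had 1193, 286 and 952 on control arrays against 466, 396 and 444 on YY1aKO arrays, with differences of -0.66 ± 0.53 (adjusted p = 0.41) and, without control 2, -1.30 ± 0.13 (adjusted p = 0.0016). Il6ra (-0.62) and Ifngr1 (-0.75), receptor chains for interleukin 6 and interferon gamma, fell without control 2 (adjusted p = 0.0025 and 0.0036), but not with 6 arrays (adjusted p = 0.26 and 0.34). The cytokine genes Il6, Il1b, Tnf and Ifng lay below the filter level.

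The probe set annotated to both C4a and C4b (1418021_at) cannot be assigned to either gene and entered no count. Control arrays gave 7396, 2932 and 5477, compared with 2220.0, 1405 and 1556 for YY1aKO. The groups did not overlap. In the fit over every probe set its log2 difference was -1.54 ± 0.37 (adjusted p = 0.054), or -1.91 ± 0.23 without control 2 (adjusted p = 0.0038). C4bp, the plasma binding protein of C4, was below the filter and was at 12850 on the array of control 2, at 16.5 and 33.3 for controls 1 and 3, and at 15.5 to 16.8 in YY1aKO. Cfi, which encodes the protease factor I, had 33.2, 269 and 321 on control arrays against 33.2, 30.5 and 25.4 on YY1aKO arrays.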
